A study of Mus musculus with 6 samples.

Results

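Dazl, Ddx4, Dnd1, Tuba3a and Taf7l are 5 genes used mainly by germ cells, and their RNA was read by 8 of the 41174 probes besides controls on each of 6 one-colour Agilent whole mouse genome arrays. The 8 probes are all those whose design accession was matched to one of the 5 symbols, out of 23366 probes matched to 16531 genes. Dazl, Tuba3a and Taf7l had 2 probes each, and Ddx4 and Dnd1 had 1. The genes were picked by name, with earlier results of these arrays known. Each array held total RNA of E14.5 male gonads from mice of a mixed ICR and N2 background, with 2 arrays for each of 3 genotypes. Nanos2+/- mice keep 1 working Nanos2 allele and served as the control. Nanos2-/- mice lack NANOS2, and Nanos2-/-_Tg+ mice lack it too but carry a Flag-tagged Nanos2-ΔN10 transgene, driven by the Nanos2 enhancer, whose product lacks the N-terminal residues that bind CNOT1 of the CCR4-NOT deadenylation complex. The labels do not say how many gonads gave each RNA or which embryos they came from, and whole gonads contain somatic cells beside germ cells. In such bulk samples fewer germ cells and less RNA per germ cell cannot be told apart.

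The 2 Nanos2+/- arrays came from 1 slide, and the 4 arrays without NANOS2 from a second. Slide and genotype therefore cannot be told apart wherever Nanos2+/- is compared, while Nanos2-/-_Tg+ and Nanos2-/- shared a slide. The Nanos2 probe read 9.42 and 10.78 in Nanos2+/-, stood at the floor of 2.32 on both Nanos2-/- arrays and read 13.28 and 14.25 in Nanos2-/-_Tg+, all as log2 of the scaled signal, so each array matched its label. On both Nanos2-/- arrays it was not well above background. The mean of Nanos2+/- was 89.7-fold above the lowest signal of any probe well above background on those arrays. That level was taken as an approximate bound for Nanos2 in Nanos2-/- and was not tested. The limma fit used the floor values and gave a difference of −7.78 (adjusted p = 0.00199). With a floor of 20, 0 probes were called between Nanos2-/- and Nanos2+/-. Well above background were 64.2 to 66.7% of probes per array, no spot was saturated, and the 8 member probes were well above background on all 6 arrays. All 16 measured germ cell content genes and all 11 Sertoli cell markers were well above background on every array too, which is the tissue the labels name.

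Germ cells carry a set of RNA-binding proteins that hold, silence or activate messages after transcription. DDX4, also called VASA or MVH, is an RNA helicase of germ granules and a standard marker of germ cells after they reach the gonad. DAZL binds the 3′ ends of messages, controls their translation, and is needed for germ cells to enter either sexual path. DND1 binds messages as well, is a partner of NANOS proteins, and its loss removes germ cells. NANOS2 is made in male fetal germ cells, recruits deadenylation enzymes to its RNAs and keeps the cells from entering meiosis. Tuba3a encodes an alpha-tubulin most abundant in testis. Taf7l encodes a germ cell form of TAF7, a subunit of the general transcription factor TFIID, and lies on the X chromosome. Dazl and Taf7l were among the transcripts that the study tested for co-precipitation with tagged NANOS2-ΔN10, so their level without NANOS2 is one question of the arrays. The other is whether Ddx4, as a germ cell marker, read alike in the 3 genotypes.

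The sequences just before a start of Ddx4, Dazl and Taf7l are shown because these genes serve as the germ cell reading and as the pair tested for co-precipitation with NANOS2-ΔN10. Each is the 250 bases upstream of 1 start per gene in RefSeq (GRCm38.p6), 5′ to 3′ on the minus strand, where all 3 genes lie. The RefSeq spans of Ddx4 and Taf7l begin further upstream, at 112652633 and 134476505, so the Ddx4 window lies wholly and the Taf7l window partly inside the gene. They are chr13:112652311-112652560 for Ddx4, chr17:50293621-50293870 for Dazl and chrX:134476491-134476740 for Taf7l. Capitals mark matches, on either strand, to the CCAAT box, to the E2F6-type core GCGGGA and to the E-box CACGTG.
Ddx4: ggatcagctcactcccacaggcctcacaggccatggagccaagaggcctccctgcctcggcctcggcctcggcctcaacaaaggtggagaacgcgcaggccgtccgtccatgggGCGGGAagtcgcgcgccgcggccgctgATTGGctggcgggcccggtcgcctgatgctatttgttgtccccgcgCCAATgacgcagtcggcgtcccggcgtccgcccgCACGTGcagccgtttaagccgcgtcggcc
Dazl: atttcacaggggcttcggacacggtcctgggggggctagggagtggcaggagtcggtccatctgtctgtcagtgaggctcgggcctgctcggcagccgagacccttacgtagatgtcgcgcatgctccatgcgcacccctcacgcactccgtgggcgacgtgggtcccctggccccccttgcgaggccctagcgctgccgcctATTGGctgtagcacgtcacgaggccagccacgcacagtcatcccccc
Taf7l: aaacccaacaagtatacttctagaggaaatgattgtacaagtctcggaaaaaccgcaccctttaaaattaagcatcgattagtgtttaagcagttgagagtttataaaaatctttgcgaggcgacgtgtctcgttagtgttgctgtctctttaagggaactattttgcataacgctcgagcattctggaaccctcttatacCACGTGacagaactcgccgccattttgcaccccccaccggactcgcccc
Ddx4 held 31 CG pairs, Dazl 20 and Taf7l 14, against a median of 6 over 32841 RefSeq promoters of the same length. Ddx4 had 2 CCAAT boxes, 1 match to GCGGGA and 1 E-box, Dazl had 1 CCAAT box, and Taf7l had 1 E-box. Of all promoters, 33.9% held a CCAAT box, 16.9% held GCGGGA and 6.02% held the E-box. The same window of Tuba3a (chr6:125286082-125286331) had 8 CG pairs, 3 CCAAT matches and 1 GCGGGA. Another motif searched, TGACGTCA (a CRE), was in 1.55% of promoters and in none of the 4 windows. These matches describe the letters only, and no binding was measured here.

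Among the 5 genes, Taf7l read more than 2-fold higher and Dnd1 about 1.76-fold lower in both genotypes without NANOS2 than in Nanos2+/-, while the bright probes of Ddx4, Dazl and Tuba3a gave overlapping arrays in both comparisons with Nanos2+/-. With 1 probe per gene, 0 of the 5 genes passed an adjusted p below 0.05 with a 2-fold change in Nanos2-/- against Nanos2+/-, where 0.0674% of all 26721 probes fitted did. None passed in Nanos2-/-_Tg+ against Nanos2+/- (0.105% of all probes) or in Nanos2-/-_Tg+ against Nanos2-/- (0.0187%). At an unadjusted limma p below 0.05, 2 of the 5 genes passed in Nanos2-/- against Nanos2+/-, where 9.08% of all probes did, and 2 in Nanos2-/-_Tg+ against Nanos2+/-, where 11.6% did. They were Dnd1 and Taf7l in both, and both comparisons share the Nanos2+/- arrays. Between Nanos2-/-_Tg+ and Nanos2-/- it was 0 of 5, against 2.74%. The 2 arrays of each genotype did not overlap for 2 of 5 genes in Nanos2-/- against Nanos2+/-, where 36% of all probes did the same, for 2 of 5 in Nanos2-/-_Tg+ against Nanos2+/- (38.9%), and for 1 of 5, Tuba3a, between Nanos2-/-_Tg+ and Nanos2-/- (31.4%). The median change over the 5 genes was −0.13, 0.04 and 0.15 in the 3 comparisons, and over all probes −0.04, −0.01 and 0.03. With 2 arrays against 2, an exact two-sided test of 1 probe cannot give a p below 0.333, so the tests here borrow the spread of all probes through limma.

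**Figure D1:**
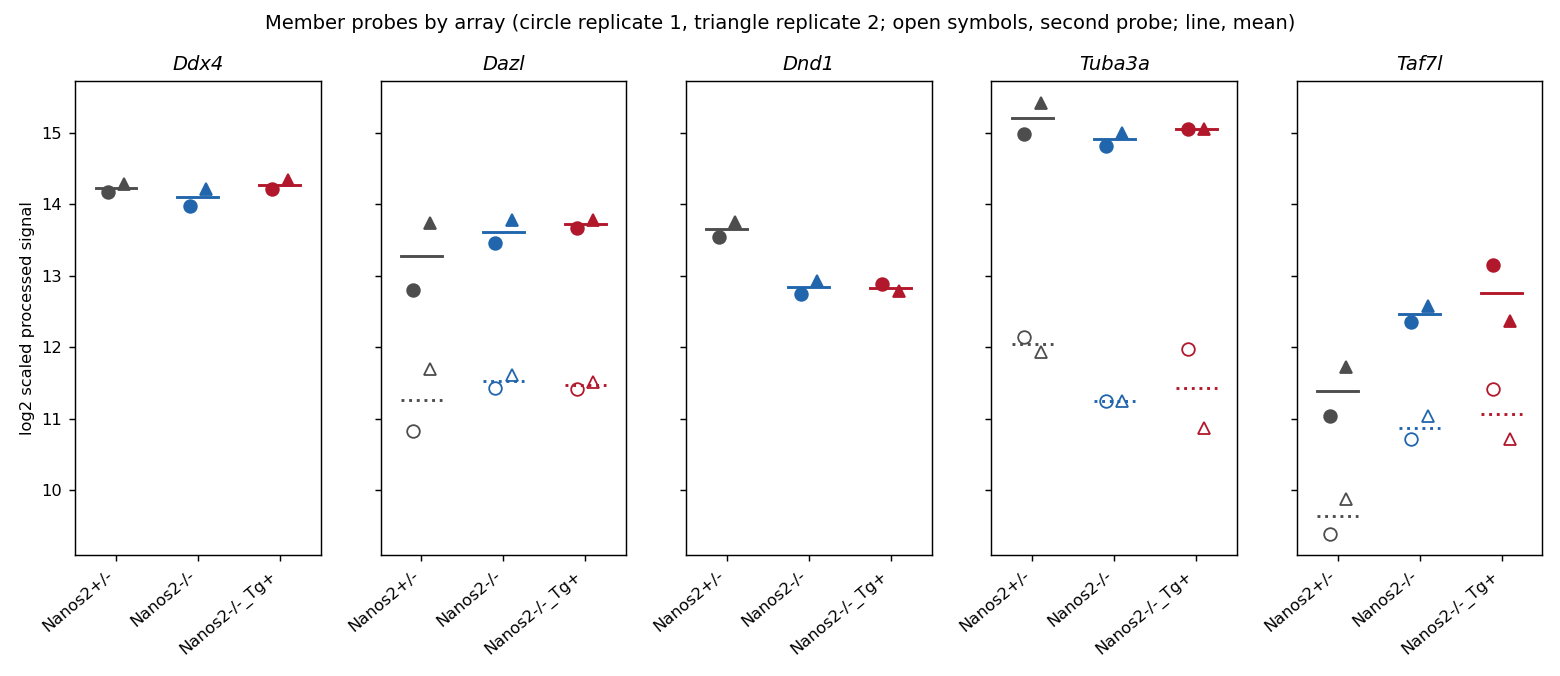
Log2 scaled processed signal of the 8 member probes on each array, by genotype, with replicate 1 as a circle, replicate 2 as a triangle, the second probe of a gene as open symbols and the mean as a line. Both Dnd1 arrays of Nanos2+/- (13.54 and 13.76) lie above the other 4, which lie between 12.75 and 12.92, and both Taf7l arrays of Nanos2+/- lie below the other 4.

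Ddx4, the germ granule helicase, read 14.17 and 14.29 in Nanos2+/-, 13.97 and 14.22 in Nanos2-/-, and 14.21 and 14.34 in Nanos2-/-_Tg+. The 3 genotypes overlapped, with all 6 arrays between 13.97 and 14.34 on the log2 scale. Nanos2-/- differed from Nanos2+/- by −0.13 (SE 0.19, 95% interval −0.58 to 0.31, limma adjusted p = 0.892) and Nanos2-/-_Tg+ by 0.04 (−0.40 to 0.49). Between the genotypes without NANOS2 the difference was 0.18 (−0.26 to 0.62). These intervals leave out a 2-fold change in either direction, and differences inside them could not be told from 0. Under normexp background correction, which moved the median of all probes to 0.56 and 0.52, the differences from Nanos2+/- became 0.84 and 1.01, with none called.

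Dazl, a translational regulator of germ cells, was read by a bright probe (A_52_P271166) at 12.80 and 13.74 in Nanos2+/-, 13.46 and 13.78 in Nanos2-/-, and 13.67 and 13.78 in Nanos2-/-_Tg+. Replicate 1 of Nanos2+/- was low and the other 5 arrays lay close together. In scaled signal that array had 7130 and the others 11239 to 14065. The change was 0.34 in Nanos2-/- (SE 0.31, 95% interval −0.38 to 1.07, limma adjusted p = 0.808), 0.45 in Nanos2-/-_Tg+ (−0.27 to 1.18), and 0.11 between the genotypes without NANOS2 (−0.62 to 0.83). Without replicate 1 of Nanos2+/- the first 2 became −0.13 and −0.02, and without replicate 2 of Nanos2+/- they were 0.82 and 0.92, so the direction rested on 1 control array. Under normexp they were 1.33 and 1.39, or 0.77 and 0.87 relative to the median of all probes. Replicate 1 of Nanos2+/- then read 11.54 and the other 5 arrays 13.94 to 14.26. A second Dazl probe (A_51_P246060) read 10.83 and 11.69 in Nanos2+/-, 11.44 and 11.61 in Nanos2-/-, and 11.42 and 11.51 in Nanos2-/-_Tg+. It had the same low array, and its changes were 0.26, 0.20 and −0.06. The low array was also the lowest for the germ cell content genes: their summed signal was 124264 in replicate 1 of Nanos2+/-, 240754 in replicate 2, and 199171 to 227851 on the other 4 arrays. By summed signal it was lowest for the Sertoli markers (123015) and the other TFIID subunits (36613) as well, but second highest for the germ granule genes (222820). Such sums rest on the brightest genes. By the mean of log2 values it was also lowest for the germ cell content genes (10.68) and the Sertoli markers (11.75). For the TFIID subunits it read 10.95, above the 10.91 of Nanos2-/- replicate 1. For the germ granule genes, counting Nanos2, it read 11.68, below replicate 2 of Nanos2+/- (11.90) and both Nanos2-/-_Tg+ arrays (12.02 each). It was not low for Ddx4. The part of these readings in the Dazl values was not tested.

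Dnd1, the RNA-binding partner of NANOS proteins, read 13.54 and 13.76 in Nanos2+/-, 12.75 and 12.92 in Nanos2-/-, and 12.88 and 12.79 in Nanos2-/-_Tg+. Both Nanos2+/- arrays were above all 4 arrays without NANOS2, and the 4 overlapped. Over all probes, 21.7% had both Nanos2-/- arrays below Nanos2+/- in this way and 20.3% both Nanos2-/-_Tg+ arrays. The mean was 13.65 ± 0.15 (SD, n = 2) in Nanos2+/-, 12.84 ± 0.12 in Nanos2-/- and 12.83 ± 0.07 in Nanos2-/-_Tg+. The signal was thus 1.76-fold lower in Nanos2-/-, a difference of −0.81 (95% interval −1.25 to −0.37, limma adjusted p = 0.257), and lower by the same fold in Nanos2-/-_Tg+, a difference of −0.82 (−1.26 to −0.38, adjusted p = 0.176). Over the alternative settings the first adjusted p ran from 0.122 to 0.839. Of all probes, 2.46% were further below Nanos2+/- in Nanos2-/- and 3.03% in Nanos2-/-_Tg+. Between the genotypes without NANOS2 the difference was −0.0043 (−0.44 to 0.43), which leaves out a 2-fold change. Leaving out any 1 of the 6 arrays kept both differences from Nanos2+/- between −0.92 and −0.71. Under normexp they became 0.17 and 0.13, and relative to the median of all probes −0.39 and −0.39. Replicate 1 of Nanos2+/- then read 12.07 for Dnd1 and replicate 2 13.88, and the cause of the turn was not tested.

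Tuba3a, the testis alpha-tubulin, was read by 2 probes that gave the same directions but differed in size and spread. The bright probe (A_51_P145402) read 14.98 and 15.42 in Nanos2+/-, 14.82 and 15.00 in Nanos2-/-, and 15.06 and 15.06 in Nanos2-/-_Tg+. Nanos2-/- overlapped Nanos2+/-, with a difference of −0.29 (95% interval −0.79 to 0.20, limma adjusted p = 0.758), and both Nanos2-/-_Tg+ arrays were above both Nanos2-/- arrays, by 0.15 (−0.35 to 0.64, adjusted p = 1). Over all probes, 20% had both Nanos2-/-_Tg+ arrays higher in this way. The second probe (A_51_P145404) read 12.14 and 11.93 in Nanos2+/-, 11.24 and 11.25 in Nanos2-/-, and 11.98 and 10.87 in Nanos2-/-_Tg+. It put both Nanos2-/- arrays below Nanos2+/-, by −0.79 (−1.58 to −0.01, adjusted p = 0.545), and its Nanos2-/-_Tg+ arrays were 1.10 apart where the bright probe had them equal to 2 decimals. Probes of this gene may also read the near-identical Tuba3b, which no probe was matched to, so its values are uncertain.

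Taf7l, the germ cell TFIID subunit, read 11.04 and 11.72 in Nanos2+/-, 12.35 and 12.58 in Nanos2-/-, and 13.16 and 12.37 in Nanos2-/-_Tg+ by its bright probe (A_52_P246973). All 4 arrays without NANOS2 were above both Nanos2+/- arrays, and the lower Nanos2-/- array and the lower Nanos2-/-_Tg+ array read nearly the same. Over all probes, 14.3% had both Nanos2-/- arrays above Nanos2+/- and 18.6% both Nanos2-/-_Tg+ arrays. The signal was 2.11-fold higher in Nanos2-/-, a difference of 1.08 (SE 0.32, 95% interval 0.33 to 1.83, limma adjusted p = 0.363), and 2.60-fold higher in Nanos2-/-_Tg+, a difference of 1.38 (0.63 to 2.13, adjusted p = 0.179). At least 2-fold higher were 1.07% and 1.49% of all probes. The second probe (A_51_P405007) read 9.39 and 9.88 in Nanos2+/-, 10.71 and 11.04 in Nanos2-/-, and 11.42 and 10.72 in Nanos2-/-_Tg+. Its differences were 1.24 and 1.44, with adjusted p of 0.26 and 0.145 by limma, so both probes gave the same direction and nearly the same size. Of all probes, 0.872% and 0.595% were further above Nanos2+/- than the bright probe, and 0.561% and 0.524% further than the second. Between the genotypes without NANOS2 the bright probe differed by 0.30 (−0.45 to 1.05, adjusted p = 1), which rested on replicate 1 of Nanos2-/-_Tg+ (−0.09 without it). Leaving out 1 array kept the differences from Nanos2+/- between 0.74 and 1.42 in Nanos2-/- and between 0.99 and 1.77 in Nanos2-/-_Tg+, the lowest without replicate 1 of Nanos2+/- and without replicate 1 of Nanos2-/-_Tg+. Under normexp they were 1.93 and 2.17, or 1.37 and 1.65 relative to the median of all probes.

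**Figure D2:**
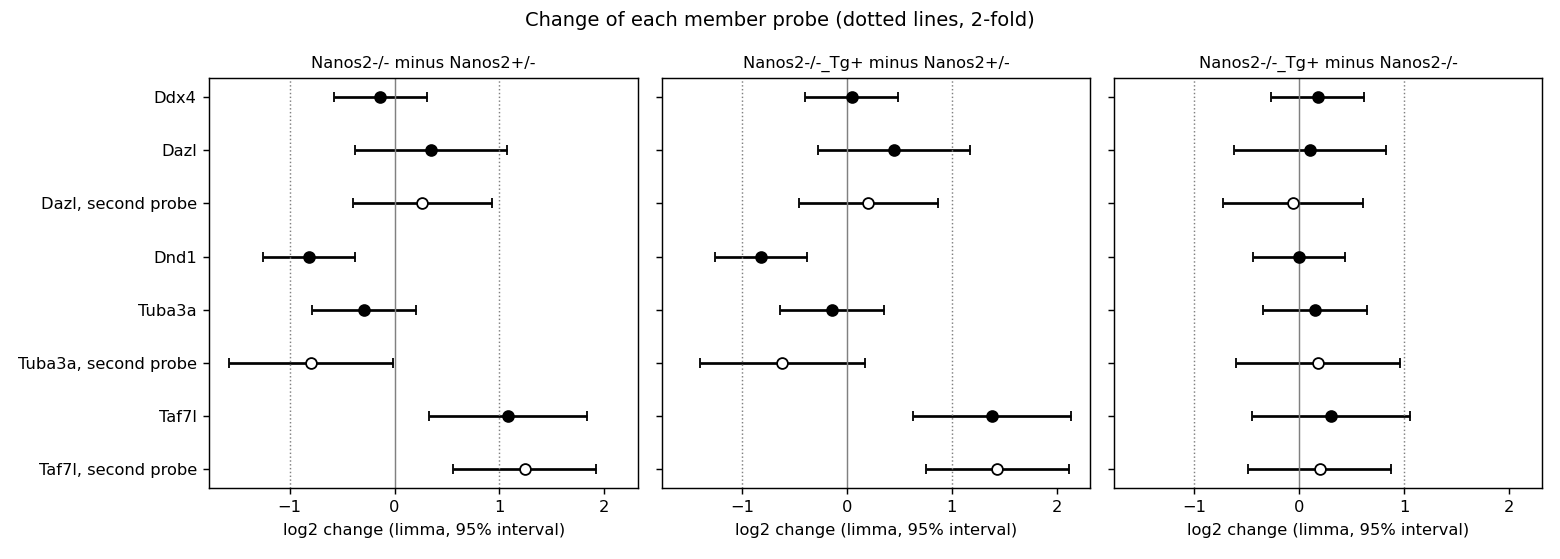
Log2 change of each member probe in the 3 comparisons, as a point with the 95% interval of the limma fit over 6 arrays, filled for the brightest probe and open for the second, with dotted lines at a 2-fold change. The intervals of Dnd1 and of both Taf7l probes lie on 1 side of 0 in both comparisons with Nanos2+/-, while every interval between Nanos2-/-_Tg+ and Nanos2-/- spans 0.

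**Figure D3:**
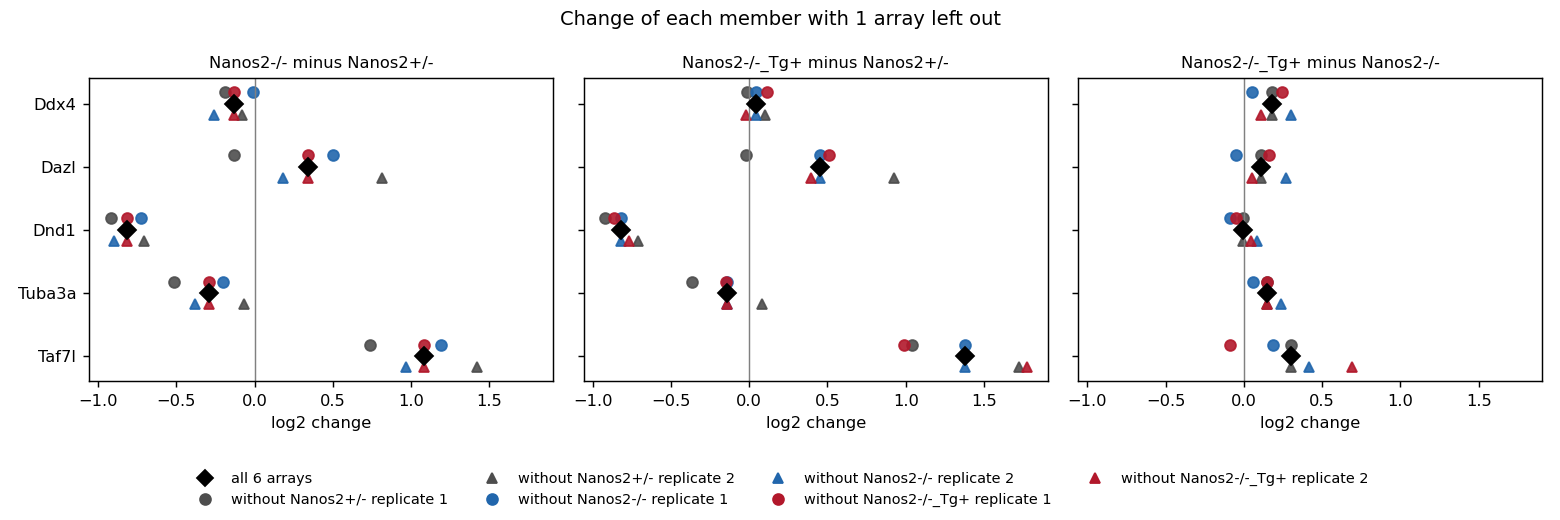
Log2 change of each member gene over all 6 arrays (diamond) and with 1 array left out (circles for replicate 1, triangles for replicate 2, coloured by the genotype of the array left out). Dnd1 stays below 0 and Taf7l above 0 against Nanos2+/- whichever array is left out, and Dazl reaches −0.13 in Nanos2-/- without replicate 1 of Nanos2+/-.

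Set against Ddx4 on the same array, Taf7l stood 1.21 higher in Nanos2-/- and 1.34 higher in Nanos2-/-_Tg+ than in Nanos2+/-. Dnd1 differed by −0.68 and −0.86 in the same way. Ddx4 is 1 transcript, and whether its RNA per germ cell was alike in the genotypes was not tested, so these are not values per germ cell. Relative to the mean Nanos2+/- ratio, the Dnd1 to Ddx4 ratio was −0.05 and 0.05 in Nanos2+/-, −0.64 and −0.72 in Nanos2-/-, and −0.75 and −0.98 in Nanos2-/-_Tg+. The same ratio of Taf7l was −0.28 and 0.28 in Nanos2+/-, 1.22 and 1.20 in Nanos2-/-, and 1.79 and 0.88 in Nanos2-/-_Tg+. Against Ddx4, Dazl stood 0.48 and 0.41 higher, and Tuba3a differed by −0.16 and −0.19. With all arrays set to an equal Ddx4 signal the adjusted p of Taf7l was 0.339 and 0.223 and that of Dnd1 0.31 and 0.168, and none of the genes passed. Across the 6 arrays, which share genotypes and slides, the Pearson correlation of Dnd1 with Taf7l was −0.77, of Dazl with Taf7l 0.72, of Tuba3a with Dnd1 0.69 and of Tuba3a with Ddx4 0.68, while Ddx4 and Taf7l had −0.01. These are descriptions over 6 arrays.

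Beside the members, 20 of 30 listed germ granule and germ cell RNA-binding genes were tested. In Nanos2-/- 7 of the 20 were higher and 13 lower than in Nanos2+/-, with a median of −0.16, and 1 passed the test, Nanos2 itself. Over all 12986 genes tested, with 1 probe each, 4994 were higher and 7991 lower, with a median of −0.07 and 6 called. Nanos2, whose loss the genotype fixed, is counted among the 13 lower. Counting it, both Nanos2-/- arrays were below both Nanos2+/- arrays for 9 of the 20. These 9 were 45%, against 24.7% of all genes. They included Tdrd1 (−0.66), a Tudor protein of the piRNA pathway, Fkbp6 (−0.56), a co-chaperone in that pathway, Mael (−0.48), which acts in transposon silencing, and Ddx25 (−0.47), a helicase of the DDX family. Their limma adjusted p ran from 0.423 to 0.6. Without replicate 1 of Nanos2+/- they stood at −0.46, −0.51, −0.33 and −0.25. The median of the 20 was then −0.22, against −0.21 for all genes. Both Nanos2-/- arrays were above both Nanos2+/- arrays for 2 of the 20 (10%, against 11.2% of all genes). Nanos3, the Nanos form of primordial germ cells, stood at 0.52, and at −0.05 without replicate 1 of Nanos2+/-. In Nanos2-/-_Tg+ against Nanos2+/-, 12 of the 20 were higher and 8 lower, with a median of 0.08, and 5 were higher and 5 lower with no overlap (25% each, against 17.3% and 20.9% of all genes). Between Nanos2-/-_Tg+ and Nanos2-/-, 17 of the 20 were higher, with a median of 0.19, against 8124 of 12986 and a median of 0.05 for all genes, and only Nanos2, the gene of the transgene, passed. The medians were the same with Nanos2 at its bound. The transgene fixed the Nanos2 reading in Nanos2-/-_Tg+, and Nanos2 is counted among the 12, the 5 higher and the 17.

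The other germ cell content genes were split in direction. Of 16 measured from a list of 20, 9 were higher and 7 lower in Nanos2-/- than in Nanos2+/-, with a median of 0.18, 11 were higher in Nanos2-/-_Tg+, with a median of 0.16, and 10 of 16 were higher in Nanos2-/-_Tg+ than in Nanos2-/-, with a median of 0.06. The first 2 directions rested on replicate 1 of Nanos2+/-: without it 14 of 16 were lower in Nanos2-/-, with a median of −0.21, and 11 in Nanos2-/-_Tg+, with a median of −0.12, while the medians of all genes became −0.21 and −0.16. None of the 16 passed in any comparison, where 6, 14 and 2 of 12986 genes did. Against Nanos2+/- the unadjusted limma p was below 0.05 for 2 of them in Nanos2-/- and for 2 in Nanos2-/-_Tg+. That was 12.5% each, against 8.49% and 10.2% of all genes. Sohlh2, a transcription factor of spermatogonia, differed by 1.39 in Nanos2-/-, and the pluripotency genes Nanog, Dppa5a and Dppa4 by 0.76, 0.64 and −0.61. Without replicate 1 of Nanos2+/- these were 0.43 for Sohlh2, −0.05 for Nanog, −0.01 for Dppa5a and −0.54 for Dppa4. Dppa4 was the only one of these 4 whose arrays did not overlap between Nanos2-/- and Nanos2+/-. Tex101, a germ cell surface protein, differed by −0.41, and Alpl, the alkaline phosphatase of primordial germ cells, by 0.35, or −0.58 and −0.05 without that array. The 11 Sertoli markers had medians of −0.04, 0.00 and 0.09 in the 3 comparisons. At an unadjusted limma p below 0.05 were 0 of these 11, against 8.49%, 10.2% and 1.72% of all genes. Their summed signal was 123015 and 183097 in Nanos2+/-, 132579 and 179604 in Nanos2-/-, and 151141 and 171715 in Nanos2-/-_Tg+.

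Dazl and Taf7l can be set beside the other transcripts that were assayed for co-precipitation with tagged NANOS2-ΔN10. The study chose these transcripts and precipitated them from older embryonic gonads than those of the arrays, and 4 of 5 were measured here. Stra8, the retinoic acid-induced starter of meiosis, read 10.19 and 11.48 in Nanos2+/-, 12.46 and 13.44 in Nanos2-/-, and 14.48 and 13.04 in Nanos2-/-_Tg+, with differences from Nanos2+/- of 2.11 and 2.93 (limma adjusted p = 0.33 and 0.138). Sycp3, a protein of the synaptonemal complex, differed by 0.20 and 0.67. All 4 were higher in both genotypes without NANOS2, where 4994 and 6053 of 12986 genes were higher. None of the 4 passed, and 6 and 14 of all genes did. Both comparisons share the Nanos2+/- arrays, and without replicate 1 of Nanos2+/- the changes in Nanos2-/- were 1.47 for Stra8, 0.74 for Taf7l, −0.13 for Dazl and −0.16 for Sycp3, with 3 of 4 higher in Nanos2-/-_Tg+.

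**Figure D4:**
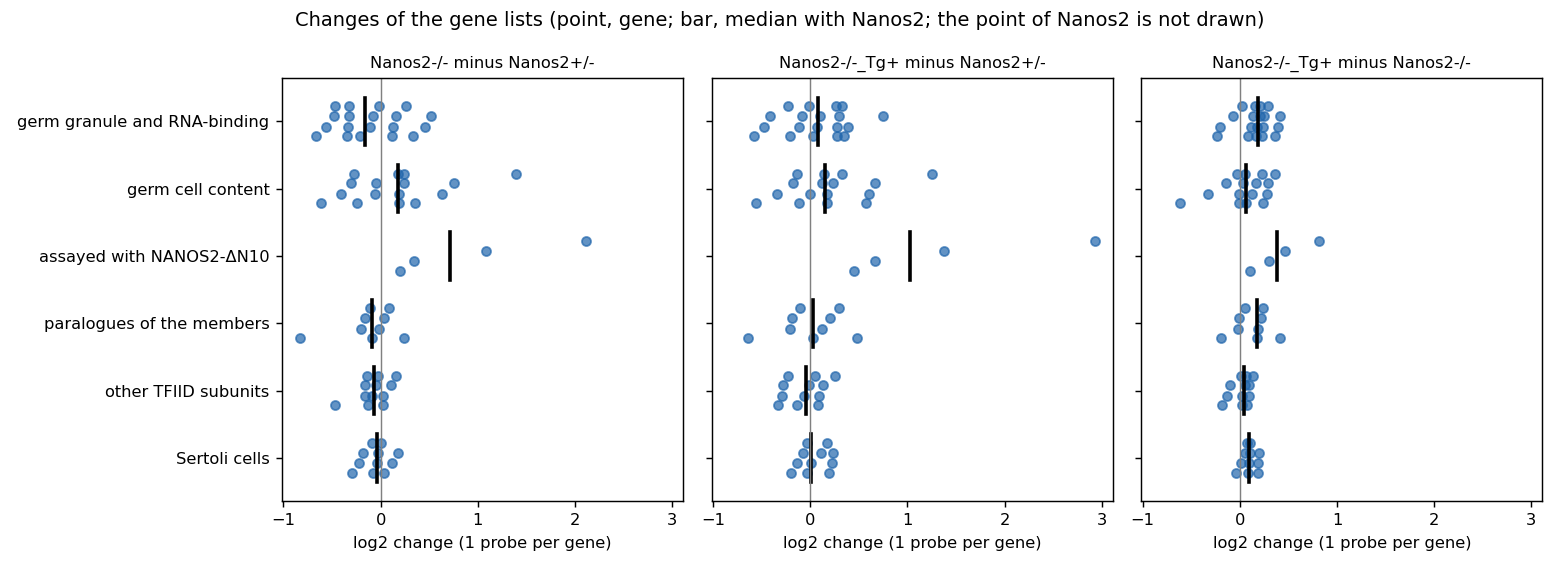
Log2 change of each gene (1 probe per gene) in 6 lists for the 3 comparisons, with the median of each list as a bar that counts Nanos2, whose point is not drawn. The germ granule list has a median of −0.16 in Nanos2-/- and 0.19 between Nanos2-/-_Tg+ and Nanos2-/-, and the Sertoli markers lie close to 0. The list assayed with NANOS2-ΔN10 holds Stra8, Sycp3, Taf7l and Dazl.

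The relatives of the members and the other subunits of TFIID were looked at in the same way. Of 15 listed paralogues 9 were measured, 3 of them higher and 6 lower in Nanos2-/- than in Nanos2+/-, with a median of −0.09 and 0 called. Over all 12986 genes 6 were called. Ddx6, a DEAD-box helicase of P-bodies related to Ddx4, read 8.83 and 9.28 in Nanos2+/-, 8.35 and 8.11 in Nanos2-/-, and 8.36 and 8.48 in Nanos2-/-_Tg+. Its differences of −0.83 and −0.64 from Nanos2+/- had limma adjusted p of 0.307 and 0.317. Boll, the relative of Dazl used later in meiosis, differed by −0.11 and 0.30, and Taf7, the somatic form of Taf7l, by 0.24 and 0.48. The alpha-tubulins Tuba1a and Tuba1c differed by −0.09 and −0.20 in Nanos2-/-. Of the 16 other TFIID subunits listed 12 were measured. Their median differences from Nanos2+/- were −0.07 without and −0.04 with the transgene. In each comparison 0 of 12 had an unadjusted limma p below 0.05, against 8.49%, 10.2% and 1.72% of all genes. Taf9b was furthest from 0 in Nanos2-/-, at −0.47, where Taf7l stood at 1.08.

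For each member the 3 genes with the most similar values over the 6 arrays were taken from 12453 genes well above background on all arrays, by Pearson correlation and with no test. For Dazl they were Ss18 (0.998), Cdc42ep4 and Ydjc. Dnd1 was most like Ccdc92 (0.999), Shisa5 and Tmco6, and Taf7l most like Onecut2 (0.997), Atp13a5 and Zfp14. Tuba3a had Eci2 (0.999), Mgst3 and Ctsb, and Ddx4, which varied least, had Dscc1 (0.987), Fancg and Adam5. Onecut2 read 7.36 and 7.85 in Nanos2+/-, 8.45 and 8.64 in Nanos2-/-, and 9.02 and 8.41 in Nanos2-/-_Tg+, highest in the same array as Taf7l. No function or control in common is read from these correlations, which were the highest of 12453.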

How the data were processed

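The deposited scanner files of the authors hold, per spot, the processed intensity after background subtraction, from Agilent Feature Extraction (9.5 per the labels, 9.5.3.1 per the file headers). The deposited table of values holds the same intensity, within 0.497%. Here 1639 control spots and 54 to 82 outlier spots of 45018 per array were left out, arrays were scaled to a common 50th percentile (factors 0.878 to 1.28), values under 5 were set to 5, log2 values were taken and then averaged over the spots of a probe. Probes whose signal was well above background on the 2 arrays of 1 genotype or more, 26722 in all, were fitted with limma 3.58.1 (lmFit, eBayes, R 4.3.3, the data.table package, 1.17.8) over 6 arrays, with 4.55 prior degrees of freedom, with a call at 2-fold or more and a Benjamini-Hochberg adjusted p under 0.05. Each gene is given by its brightest probe. Figures and lists were made with Python 3.11.15, pandas 2.3.3, numpy 2.4.6 and matplotlib 3.10.9. Simulated data, with changes larger than those of the members, served to test the fit. They do not show whether it could call changes of the members' size.

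The members and lists were chosen with earlier results of these data known. From each list the 6 genes with the largest change between Nanos2-/- and Nanos2+/- could be named, and for other cell types also the brightest. Genotype, age and replicate number come from the labels, which call the samples biological duplicates without naming animals, so the spread may be partly technical. Replicate differences correlated between genotypes at 0.355, 0.313 and 0.259 over 26709 probes, so the numbers were treated as pairs in an alternative fit. The alternatives were other scalings, background correction, floors, filters, outlier spots kept, the values of the deposited table, the replicate block, the 4 arrays compared, a trended prior, the methods' t-test and each array left out. Normexp was run on the median spot signal in place of the mean, with offset 50. The second probe and arrays set to equal Ddx4 signal were added after seeing the data. Tuba3b and Prdm9 are not analysed here.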

Additional observations from a re-analysis of the deposited data

How the results depend on the processing

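None of the 5 genes was called under any of the 21 alternatives in any of the 3 comparisons. With the replicate number as a block none was called either: the adjusted p of Dnd1 was 0.122 and 0.0802 against Nanos2+/-, that of Taf7l 0.237 and 0.113, and over all probes the block gave 145 calls for Nanos2-/-_Tg+ against Nanos2+/- in place of 28. The methods' t-test, unadjusted, gave Dnd1 0.0271 and 0.0195 at under 2-fold. Calls over all probes ran from 0 to 285, 0 to 287 and 0 to 168.

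In the order of the 3 comparisons, the genes whose arrays did not overlap numbered 2, 2 and 1, and 2 to 4, 2 to 5 and 1 to 5 with 1 array left out. For Nanos2-/- against Nanos2+/- they were 4 with quantile normalization and 1 with normexp, for Nanos2-/-_Tg+ against Nanos2+/- 4 with the 75th percentile and 4 with quantile normalization, and for Nanos2-/-_Tg+ against Nanos2-/- 2 with the 75th percentile, 0 with the mean over probes and 2 at equal Ddx4 signal. In the main setting 36%, 38.9% and 31.4% of all probes did not overlap, and the shares under the alternatives were not counted. Where the array left out was of a compared genotype, 1 array stood against 2, which overlap less easily. These counts are therefore no result about the members.

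Directions turned under normexp for Ddx4 in Nanos2-/- (0.84), Dnd1 (0.17 and 0.13) and Tuba3a (0.73 and 0.82) against Nanos2+/-, where replicate 1 of Nanos2+/- read 12.50 for Ddx4 and the other 5 arrays 14.05 to 14.42. With 1 array left out, Dazl against Nanos2+/- lay between −0.13 and 0.82 in Nanos2-/- and, in Nanos2-/-_Tg+, between −0.021 and 0.92, the lowest without replicate 1 of Nanos2+/-, and in Nanos2-/-_Tg+ Ddx4 ran from −0.021 (without its replicate 2) to 0.11 and Tuba3a from −0.37 to 0.079 (without Nanos2+/- replicate 2). Between Nanos2-/-_Tg+ and Nanos2-/-, Dazl ran from −0.053 to 0.27 and Dnd1 from −0.090 to 0.082, without Nanos2-/- replicates 1 and 2, and Taf7l from −0.090 to 0.69, without Nanos2-/-_Tg+ replicates 1 and 2. Dazl there was −0.059 with the dimmer probe and −0.072 at equal Ddx4 signal, where Tuba3a was −0.031. The cause of these turns was not tested. The number of arrays, 2 per genotype, limits the precision. The member probes were well above background on all of them.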

Other observations

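Pou5f1, the pluripotency factor of early germ cells, was chosen here after its values were seen. It read 10.62 and 12.43 in Nanos2+/-, 10.53 and 12.39 in Nanos2-/-, and 10.78 and 12.61 in Nanos2-/-_Tg+. Replicate 2 was above replicate 1 in every genotype by more than the genotypes differed, and the changes between genotypes were −0.06, 0.17 and 0.24. Dazl was likewise lower in replicate 1 than in replicate 2 of each genotype, by differences of −0.94, −0.32 and −0.11. Nothing in the labels tells what samples of 1 number have in common.

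Markers of other cells of the gonad gave 0 calls in any comparison, where 6, 14 and 2 of 12986 genes were called. At an unadjusted limma p below 0.05 were 2, 3 and 1 of 6 mesonephros markers and 0, 0 and 2 of 6 blood markers. Of 5 endothelial markers 1, 0 and 0 passed, and no Leydig or macrophage marker did. Over all genes the shares were 8.49%, 10.2% and 1.72%. Over 5 fetal Leydig cell markers the medians were −0.10, −0.33 and −0.13 in the 3 comparisons, with Star, which brings cholesterol into mitochondria, at −0.21 in Nanos2-/-. Over 6 blood markers the medians were −0.14, 0.18 and 0.37, over 5 endothelial markers −0.14, 0.08 and −0.04, and over 3 macrophage markers 0.06, 0.08 and 0.12. The 2 blood genes between Nanos2-/-_Tg+ and Nanos2-/- were Alas2 (0.60) and Hba-a1 (0.50), and 5 of the 6 were higher and 1 lower there. Both Nanos2-/-_Tg+ arrays were above both Nanos2-/- arrays for 3 of 6 (50%, against 23% of all genes). Among 6 mesonephros markers the medians were 0.12, −0.04 and 0.09. Cdh16, a cadherin of kidney tubules, read 6.05 and 8.60 in Nanos2+/-, 7.05 and 3.94 in Nanos2-/-, and 4.57 and 5.12 in Nanos2-/-_Tg+, and its arrays differed by more within Nanos2+/- and Nanos2-/- than the genotypes did. Of the other mesonephros genes, Lhx1 and Emx2 differed by 0.41 and 0.54 in Nanos2-/-, and Pax8 and Pax2 by −0.82 and −0.18. The smallest limma adjusted p was 0.249, that of Pax8. Both Pax genes were dim: Pax8 read 3.99 to 4.93 and Pax2 3.30 to 3.67. They were well above background on 5 and 3 of the 6 arrays. In the absence of the first Nanos2+/- array, Lhx1 was at −0.54, the mesonephros median at −0.40 and the blood median at −0.66 in the same comparison.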
